A study of Mus musculus with 8 samples.

Results

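The tripartite motif (TRIM) family was followed in cultured epidermal cells (primary keratinocytes) of the mouse. The genes were taken by symbol, as every row named Trim followed by a digit, without Trim30a, and were kept where the normalised coverage averaged at least 1 aligned base per megabase of library (written per Mb) over the 8 libraries. That gave 58 rows, of which 32 passed the filter, among 11870 genes that passed it in the whole table of 19457. There were 4 libraries from HdR mice, whose HOIL1 lacks the RING1 domain (HOIL1 ΔRING1), and 4 from wild-type (WT) mice, all from skin keratinocytes cultured and harvested before they reached confluence. The labels give no age, sex, strain, zygosity or culture batch, and do not say whether a genotype's libraries came from separate animals, so p-values measure the spread between these libraries, which may be technical.

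TRIM proteins carry, in order, a RING domain, 1 or more B-boxes and a coiled coil, followed by a C-terminal part that differs between classes and usually binds the substrate. The RING domain recruits a ubiquitin-conjugating enzyme, so most members act as ubiquitin ligases, while some lack the RING. Several members tune antiviral and NF-κB signalling, others repress chromatin, and TRIM29 and TRIM16 are known from stratified epithelium. HOIL-1, encoded by Rbck1, belongs to LUBAC, the complex that assembles linear ubiquitin chains, whose ligases are of another RING-type family.

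Promoter sequences are shown for the pair of members whose transcripts stood furthest above WT, Trim25 and Trim59, each over 250 bases before to 50 bases after the annotated start (RefSeq, GRCm38.p6). The Trim25 window lies at chr11:88999153-88999452 on the plus strand and the Trim59 window at chr3:69044693-69044992 on the minus strand, both written 5′ to 3′ along the gene.
Trim25: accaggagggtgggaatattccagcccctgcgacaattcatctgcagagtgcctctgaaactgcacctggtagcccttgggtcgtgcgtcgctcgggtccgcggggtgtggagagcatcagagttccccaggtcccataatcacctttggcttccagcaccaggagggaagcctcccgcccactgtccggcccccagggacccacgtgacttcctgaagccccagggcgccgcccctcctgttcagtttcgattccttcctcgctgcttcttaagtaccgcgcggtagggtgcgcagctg
Trim59: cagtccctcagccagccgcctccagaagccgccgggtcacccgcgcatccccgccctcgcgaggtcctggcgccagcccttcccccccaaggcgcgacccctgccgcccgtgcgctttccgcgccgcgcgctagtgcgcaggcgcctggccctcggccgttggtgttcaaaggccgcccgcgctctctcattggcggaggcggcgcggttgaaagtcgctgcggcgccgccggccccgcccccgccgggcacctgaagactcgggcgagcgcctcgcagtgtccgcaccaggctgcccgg
The Trim25 window is 62.7% G and C with 18 CpG steps, and the Trim59 window 76.7% with 44. Neither holds, on either strand, the interferon response motif (TTTC, any 2 bases, TTTC) or the κB consensus, which are in 3.44% and 8.46% of 32851 promoter windows of this length. This says only that these letters are not in the windows.

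The interferon response motif was in at least 1 window of 6 of the 24 filtered members that the promoter table lists, which have 33 windows between them. Over all 32851 windows the share was 3.44%, counted per window and not per gene. Trim29, Trim14, Trim35 and Trim16 were among the filtered members without a window and were not searched. The 6 members' windows are shown because factors activated by interferon bind such motifs. The motif is in capitals on either strand and, where 2 matches overlap, both matches are in capitals.
Trim21: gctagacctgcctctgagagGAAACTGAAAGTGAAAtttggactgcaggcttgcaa
Trim26: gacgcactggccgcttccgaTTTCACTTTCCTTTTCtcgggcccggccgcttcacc
Trim34a: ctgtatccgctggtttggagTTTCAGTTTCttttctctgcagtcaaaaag
Trim12a: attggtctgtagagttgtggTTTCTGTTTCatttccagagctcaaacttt
Trim12c: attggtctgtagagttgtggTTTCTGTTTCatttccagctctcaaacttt
Trim2: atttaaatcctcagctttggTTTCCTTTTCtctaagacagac
These stand at chr7:102565434-102565489 (minus), chr17:36836966-36837021 (plus), chr7:104244447-104244496 (plus), chr7:104315456-104315505 (minus), chr7:104353349-104353398 (minus) and chr3:84212789-84212830 (minus), in that order. The Trim12a and Trim12c windows are identical at 48 of 50 bases, and both genes lie with Trim34a in 1 cluster on chromosome 7. Trim2 has the motif in only 1 of its several promoters. The κB consensus was in a window of Trim13, Trim28 and Trim7. A match is a description of the sequence and not a shown binding site.

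The HdR libraries held 2.31 to 4.31 Gb of aligned bases and the WT libraries 4.78 to 5.43 Gb (two-sided exact permutation p = 0.029, which is the minimum over 70 regroupings), and depth cannot be told apart from genotype. Rbck1, which encodes HOIL-1, had 43.6, 41.1, 45.2 and 44.8 aligned bases per Mb in HdR libraries, against 84.5, 89.1, 91.5 and 84.9 in WT libraries, and was lower in every HdR library. The basal keratin gene Krt5 was high in both groups, at 18576 ± 311 aligned bases per Mb in HdR and 17291 ± 851 in WT (SD, n = 4 each). It was called higher in HdR (limma adjusted p = 0.0247). The summed level of 6 suprabasal markers was 1188 to 1348 aligned bases per Mb in HdR and 1726 to 2216 in WT, and that of 7 melanocyte markers 26.2 to 28.6 in HdR and 50.3 to 57.9 in WT. The part of these shifts in the TRIM values was not tested. In bulk RNA, fewer cells of a type and less RNA per cell cannot be told apart. Of 6 immune cell markers only Itgam passed the filter (3.59 ± 0.618 aligned bases per Mb in HdR and 5.33 ± 0.930 in WT), and Lyz2 and Cd207 were listed at 0 in every library.

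The TRIM family split in direction, with small changes. At a limma adjusted p under 0.05, 15 of the 32 members were called (46.9%), 6 higher and 9 lower in HdR, and 17 were not called. Over all genes tested 45% were called, 21.2% higher and 23.8% lower, so the share of TRIM genes called was close to the background. The higher members were Trim25, Trim59, Trim32, Trim2, Trim28 and Trim37, and the lower ones Trim14, Trim29, Trim35, Trim68, Trim12a, Trim24, Trim44, Trim41 and Trim16. Trim12a passed the filter only through its WT level (1.30, against 0.780 in HdR), so its place among the lower members partly follows from the filter. Trim65, the reverse case (1.18 in HdR and 0.781 in WT), fell just under the filter. The median log2 fold change of the members was -0.07, against -0.01 for all genes tested, and no member differed by as much as 1.5-fold on the log2(value + 1) scale, which shrinks the folds of low genes (the range was -0.58 to 0.47). Without WT 1, 3 members were higher and 8 lower. Calls over all genes also fell there, to 2145 higher and 2416 lower, from 2517 and 2829 with all libraries. HdR and WT values were fully apart in 13 members, 6 higher and 7 lower, against 41.1% of all genes, 19.8% higher and 21.3% lower. As a family of like function, 66 Rnf genes (RING finger genes, without Rnf31) had 7 higher and 23 lower, 45.5% called in all.

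**Figure D1:**
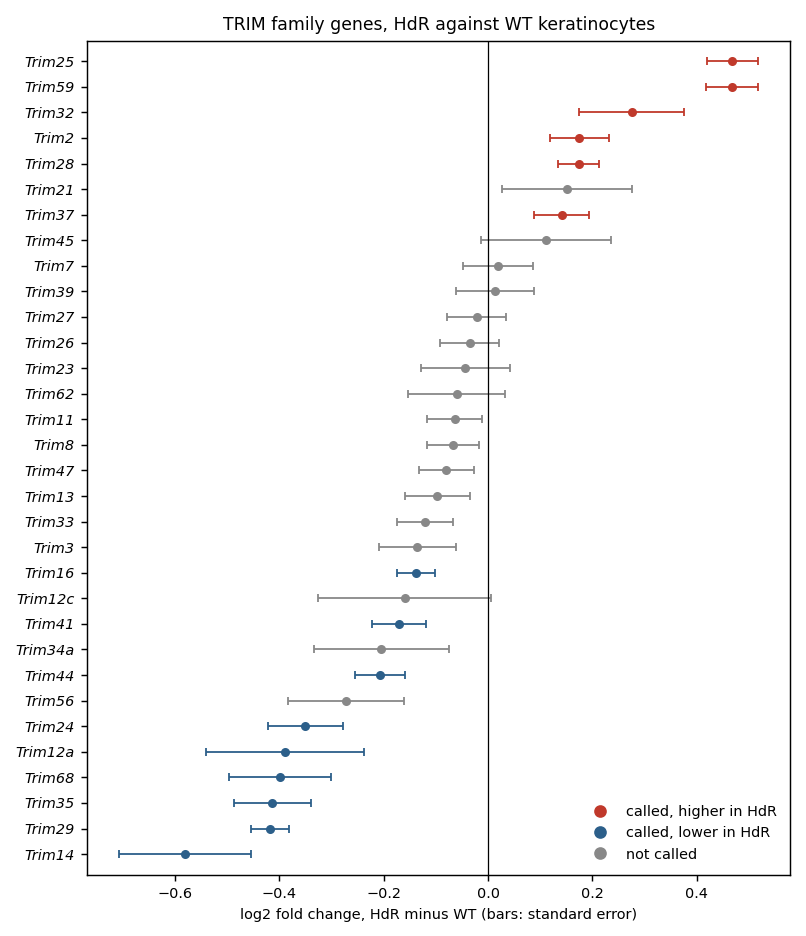
Log2 fold change of each of the 32 TRIM genes, HdR minus WT, with the standard error from limma as bars (n = 4 libraries per genotype). Trim25 and Trim59 stand together at 0.47 and Trim14 lowest at -0.58, while 17 genes in grey were not called.

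Of the 32 members, only Trim29, Trim25 and Trim59 were shown to differ by more than a fold of 1.2 (limma's treat test, adjusted p = 0.00529, 0.00705 and 0.00765). The first was lower and the others higher. In that test 7.47% of all genes were called, 2.89% higher and 4.58% lower. These 3 members are described first.

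Trim29 (ENSMUSG00000032013, chromosome 9, 43310848 to 43336115, plus strand, GRCm38) encodes a RING-less member made in the basal layer of stratified epithelia. Its normalised coverage was 554, 577, 545 and 582 aligned bases per Mb in HdR libraries 1 to 4, against 769, 743, 782 and 723 in WT libraries 1 to 4. Every HdR library lay below every WT library, and the gap between the groups was wider than the spread within either. The means were 564 ± 18.0 in HdR and 754 ± 26.3 in WT (SD, n = 4 each). The difference on the log2 scale was -0.42 ± 0.036 (SE, adjusted p = 9.3e-08 by limma). It kept its call under each of 20 alternative settings, with a log2 fold change between -0.46 and -0.38. Of 6 basal keratinocyte markers tested, 3 were called higher (Krt5, Itga6 and Itgb4) and none lower. Over all genes, 21.2% were called higher and 23.8% lower. Krt14, Krt15 and Trp63 were not called. The part of cell composition in the Trim29 values was not tested.

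Trim29 was also the highest member per kilobase of annotated exon, at 162 aligned bases per Mb and kb in HdR and 217 in WT, followed by Trim28 (56.0 in HdR and 49.6 in WT) and Trim16 (33.0 in HdR and 36.3 in WT). The lowest member per kilobase was Trim12a, at 0.135 in HdR and 0.225 in WT. Summed over the 32 members, coverage was 1738, 1747, 1748 and 1747 aligned bases per Mb in HdR, against 1944, 1951, 1949 and 1933 in WT. Trim29 alone made up 31.1% to 33.3% of that sum in HdR and 37.4% to 40.1% in WT. Without Trim29, the sum was 1165 to 1204 in HdR and 1168 to 1210 in WT, ranges that overlap almost fully. The mean difference between the genotypes, HdR minus WT, was -199 aligned bases per Mb with Trim29 and -9.18 without it.

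**Figure D2:**
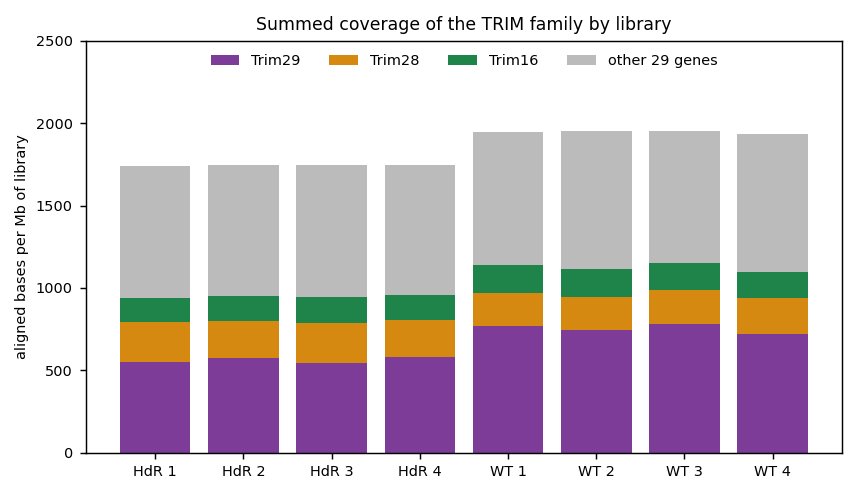
Summed normalised coverage of the 32 TRIM genes in each library, in aligned bases per Mb, split into Trim29, Trim28, Trim16 and the other 29 genes. The Trim29 block runs from 545 to 582 in HdR libraries and from 723 to 782 in WT libraries, and the remainder is of like height in all 8.

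Trim25 (ENSMUSG00000000275, chromosome 11, 88999376 to 89020293, plus strand) encodes the ligase that adds ubiquitin to the RNA sensor RIG-I and is itself interferon- and oestrogen-inducible. It had 53.0, 53.7, 51.6 and 56.1 aligned bases per Mb in HdR libraries, against 37.3, 39.01, 36.9 and 40.7 in WT libraries. The groups were far apart, with means of 53.6 ± 1.91 in HdR and 38.5 ± 1.71 in WT (SD, n = 4 each). Trim25 rose by 0.47 ± 0.050 on the log2 scale (SE, adjusted p = 1.04e-06 by limma).

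Trim59 (ENSMUSG00000034317, chromosome 3, 69035288 to 69044755, minus strand) encodes a membrane-anchored member linked to proliferation in tumour cells. It had 58.7, 53.3, 57.4 and 56.1 aligned bases per Mb in HdR libraries, against 41.3, 37.8, 40.7 and 42.1 in WT libraries. Its means were 56.4 ± 2.28 in HdR and 40.5 ± 1.87 in WT (SD, n = 4 each), and it rose by 0.47 ± 0.050 on the log2 scale (SE, adjusted p = 1.19e-06 by limma), beside 0.47 for Trim25. Both rises were called under each of 20 alternative settings.

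**Figure D3:**
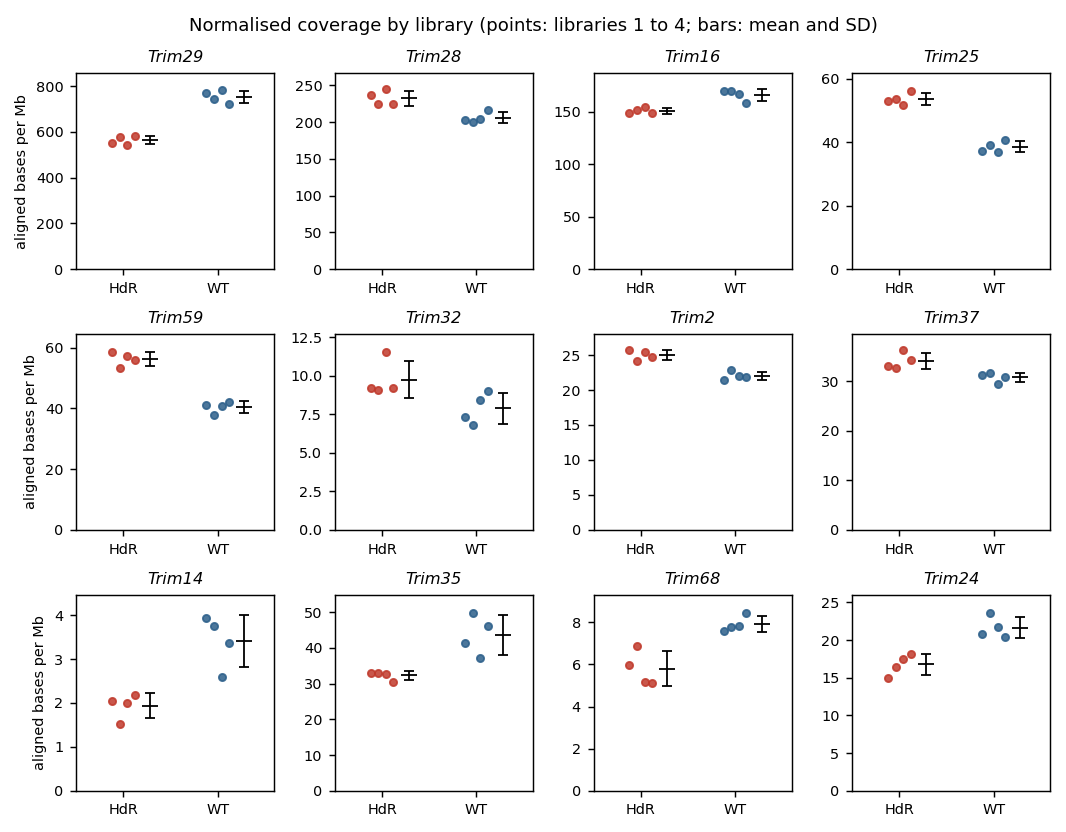
Normalised coverage (aligned bases per Mb) of 12 TRIM genes, with a point for each HdR and WT library and bars for the mean and SD (n = 4 each). All 12 separate the genotypes without overlap, as 41.1% of all genes tested do, and Trim12a, whose groups overlap, was left out of the panel. The gap is wide in Trim29, Trim25 and Trim59. It is narrow in Trim32, where the lowest HdR library is at 9.07 and the highest WT library at 9.01.

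Of 5 members known as RING-less, 4 passed the filter, and these 4 were called lower in HdR, where 23.8% of all genes were. Their HdR values lay wholly below their WT values, as in 21.3% of all genes. The 28 RING-bearing members tested had 6 higher and 5 lower. That was 39.3% called, against 45% of all genes (21.2% higher and 23.8% lower). The split follows what is known of the proteins, and no protein sequence was searched for the RING. The difference between these sets was not tested. Beside Trim29, the RING-less members tested were Trim14, Trim44 and Trim16. Trim14 is an adaptor of antiviral signalling at mitochondria, and Trim44 carries a zinc finger of the deubiquitinase type. Trim16 takes part in the autophagic response to damaged endomembranes and is made in keratinocytes.

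Trim14 (ENSMUSG00000039853, chromosome 4) had 2.05, 1.53, 1.99 and 2.17 aligned bases per Mb in HdR libraries, against 3.94, 3.75, 2.58 and 3.36 in WT libraries. It had the lowest log2 fold change of the family, -0.58 ± 0.13 (SE, limma adjusted p = 0.00121), and also a low level, so the pseudocount of 1 shrinks that value, which was -0.78 with a pseudocount of 0.1. In the annotation 38.04% of its exon bases overlap other genes, among them Nans on the opposite strand, and the strand setting of the authors' processing is not given in the sources used here. Nans was higher in HdR (101 ± 3.74 aligned bases per Mb in HdR and 80.7 ± 5.50 in WT, SD, n = 4 each), the opposite direction to Trim14.

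Trim16 (ENSMUSG00000047821, chromosome 11) had 149, 151.4, 154 and 148 aligned bases per Mb in HdR libraries, against 169.5, 169.9, 167 and 158 in WT libraries. The change was small, at -0.14 ± 0.036 on the log2 scale (SE, limma adjusted p = 0.00506), but no HdR library reached the lowest WT library. Trim44 averaged 74.1 ± 4.05 aligned bases per Mb in HdR and 85.7 ± 4.38 in WT (SD, n = 4 each), and fell by 0.21 ± 0.048 on the log2 scale (SE, adjusted p = 0.00218 by limma). Its highest HdR library, at 80.2, was just under its lowest WT library, at 80.8.

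The chromatin members, which carry a PHD finger and a bromodomain, went both ways. Trim28 encodes KAP1, the corepressor that KRAB zinc finger proteins bring to retroelements, and Trim24 and Trim33 encode its relatives TIF1α and TIF1γ, a nuclear receptor cofactor and a SMAD pathway ligase. Trim28 (ENSMUSG00000005566, chromosome 7) had 238, 224, 245 and 224 aligned bases per Mb in HdR libraries, against 203, 200.2, 205 and 217 in WT libraries. This was a modest rise without overlap, 0.17 ± 0.040 on the log2 scale (SE, limma adjusted p = 0.0018). Trim24 (ENSMUSG00000029833, chromosome 6) had 15.0, 16.5, 17.5 and 18.2 aligned bases per Mb in HdR libraries, against 20.8, 23.6, 21.7 and 20.4 in WT libraries. It fell by 0.35 ± 0.072 on the log2 scale (SE, limma adjusted p = 0.000807), and the call was lost after the libraries were thinned to the smallest one (-0.20, adjusted p = 0.0618, with adjusted p from 0.000356 to 0.734 over the alternatives). Trim33 had 50.8, 53.0, 54.6 and 52.3 aligned bases per Mb in HdR libraries, against 55.6, 62.6, 52.1 and 59.6 in WT libraries. Its groups overlapped through WT 3, and it was not called (-0.12 ± 0.054, SE, limma adjusted p = 0.0798), but without WT 3 it was called lower (-0.17, adjusted p = 0.0119).

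Of 16 partners of KAP1 (histone methyltransferase, heterochromatin, deacetylase and silencing complex genes), all tested, 6 were higher and 2 lower in HdR, 50% called against 45% of all genes, with a median log2 fold change of 0.08. Uhrf1, a reader of hemimethylated DNA, had the smallest p (121.7 ± 8.43 aligned bases per Mb in HdR and 96.1 ± 4.41 in WT, SD, n = 4 each), followed by Morc2a, higher at 0.24, and Atf7ip, lower at -0.25 on the log2 scale.

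The NHL-repeat members, RNA-binding or cytoskeletal ligases, had 2 of 3 tested called higher, where 21.2% of all genes were, and both calls were lost under some alternatives. Trim32 (ENSMUSG00000051675, chromosome 4), whose ligase acts on PIASy in keratinocytes, had 9.18, 9.07, 11.5 and 9.22 aligned bases per Mb in HdR libraries, against 7.34, 6.77, 8.43 and 9.01 in WT libraries. HdR 3 stood above the other HdR libraries, and the call of 0.28 ± 0.10 (log2, SE, limma adjusted p = 0.0337) was lost without HdR 3 (0.129), WT 1 (0.0928) or WT 2 (0.112) and with no filter on low values (0.0723). Trim2 (ENSMUSG00000027993, chromosome 3), best known from neurons, had 25.7, 24.2, 25.4 and 24.7 aligned bases per Mb in HdR libraries, against 21.4, 22.9, 22.0 and 21.9 in WT libraries. It rose by 0.17 ± 0.056 (log2, SE, limma adjusted p = 0.0181), with adjusted p of 0.0529 without HdR 1, 0.0547 without WT 1 and 0.0539 after thinning. Trim3, its close relative, had 13.5 to 15.1 aligned bases per Mb in HdR and 14.3 to 17.2 in WT and was not called (limma adjusted p = 0.143).

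Trim37 (ENSMUSG00000018548, chromosome 11), a MATH-domain member that acts at centrosomes and peroxisomes, had 33.0, 32.6, 36.2 and 34.3 aligned bases per Mb in HdR libraries, against 31.3, 31.5, 29.5 and 30.8 in WT libraries. The groups did not overlap, but the rise of 0.14 ± 0.054 (log2, SE, limma adjusted p = 0.041) was the weakest call of the higher members. It was lost with the replicate number as a block (adjusted p = 0.0869), without HdR 1, HdR 3, HdR 4, WT 1, WT 3 or WT 4 (adjusted p 0.0526 to 0.132) and without HdR 4 and WT 4 together (0.11). Of the other 4 members with an ARF, filamin or transmembrane part, Trim59 was called higher, as given above, and Trim23, Trim45 and Trim13 were not called.

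The PRY-SPRY members form the largest class, and the PRY-SPRY domain serves as a recognition module in many antiviral members. Of 15 on the class list that were tested, 1 was higher (Trim25) and 4 lower (Trim35, Trim68, Trim12a and Trim41). That was 33.3% called, against 45% of all genes. The list used here leaves out the RING-less Trim14 and Trim16, both called lower, so its share does not cover every member with this domain. Trim35 (ENSMUSG00000022043, chromosome 14) had 32.9, 33.0, 32.7 and 30.5 aligned bases per Mb in HdR libraries, against 41.5, 49.8, 37.0 and 46.1 in WT libraries. The WT libraries were more spread than the HdR ones and lay above all of them (-0.41 ± 0.074, log2, SE, limma adjusted p = 0.000276). Trim68 (ENSMUSG00000073968, chromosome 7), an androgen receptor cofactor in human cells, had 5.98, 6.88, 5.17 and 5.12 aligned bases per Mb in HdR libraries, against 7.60, 7.77, 7.84 and 8.43 in WT libraries, also with no overlap (-0.40 ± 0.098, log2, SE, limma adjusted p = 0.00307). Trim41 averaged 50.3 ± 2.09 aligned bases per Mb in HdR and 56.8 ± 3.31 in WT (SD, n = 4 each), with HdR 1 above WT 1, and was called lower at -0.17 ± 0.051 (log2, SE, limma adjusted p = 0.0115). Without HdR 4 and WT 4 together Trim41 was not called.

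Trim27, a regulator of NF-κB activation that binds IKK-family kinases, had 73.4, 78.0, 75.9 and 63.1 aligned bases per Mb in HdR libraries, against 72.5, 70.4, 75.5 and 75.8 in WT libraries. The groups overlapped and it was not called (-0.02 ± 0.057, log2, SE, limma adjusted p = 0.782). Trim8, of the class without a named C-terminal domain and an activator of TAK1, had 68.7, 63.5, 68.3 and 63.4 in HdR libraries, against 68.7, 75.0, 65.6 and 67.6 in WT libraries. It too overlapped and was not called (-0.07 ± 0.049, limma adjusted p = 0.28). Trim38, which acts on TAB2 and on antiviral sensors, was listed at 0 in every library. The members called neither way also include Trim11, Trim26, Trim39, Trim47, Trim62 and Trim7, whose log2 fold changes lay between -0.08 and 0.02.

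**Figure D4:**
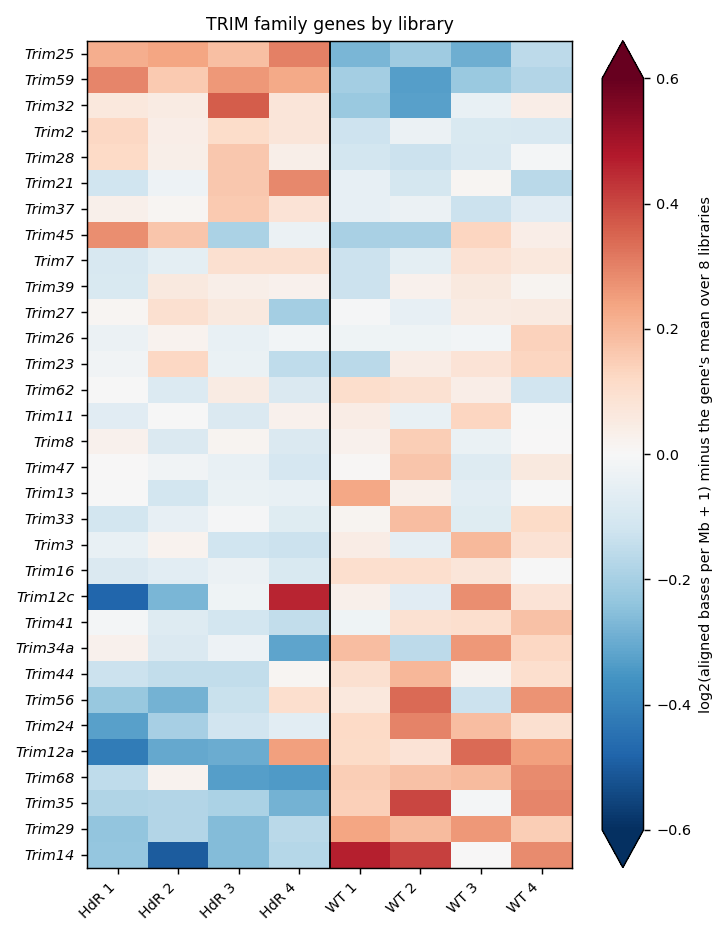
Log2 of normalised coverage plus 1 for the 32 TRIM genes in each library, with each gene's mean over the 8 libraries taken away, ordered by fold change from highest to lowest. Trim25 and Trim59 are above their means in all HdR libraries and Trim29 and Trim35 below in all of them, while HdR 4 stands above the other HdR libraries in Trim12a and Trim12c.

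The members known as interferon-inducible or antiviral were mostly low in both genotypes and did not move one way. Of 16 on that list, 8 passed the filter, 1 was higher (Trim25) and 2 lower (Trim14 and Trim12a), 37.5% called against 45% of all genes. Trim12a passed the filter only through its WT level. Trim21, a cytosolic antibody receptor with 2 overlapping matches to the interferon response motif, had 1.47, 1.62, 1.99 and 2.28 aligned bases per Mb in HdR libraries, against 1.59, 1.49, 1.70 and 1.40 in WT libraries. The groups overlapped and it was not called (0.15 ± 0.12, log2, SE, limma adjusted p = 0.343). Trim26, with 2 overlapping matches, averaged 27.6 ± 0.578 aligned bases per Mb in HdR and 28.3 ± 1.69 in WT (SD, n = 4 each), a log2 difference of -0.04 (limma adjusted p = 0.644). Trim56, an antiviral member without the motif in its window, had 7.55 ± 1.05 aligned bases per Mb in HdR and 9.35 ± 1.48 in WT (SD, n = 4 each) and missed the threshold (-0.27 ± 0.11, log2, SE, limma adjusted p = 0.0548). It was called lower without HdR 4, without WT 3 and by limma-voom. Among the 6 members with the interferon response motif, 1 was called higher (Trim2), 1 lower (Trim12a) and 4 not called. Over all genes 21.2% were called higher and 23.8% lower. Trim14, Trim16, Trim29 and Trim35, called lower, had no window to search, so this count does not cover them.

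Trim34a, Trim12a and Trim12c lie with Trim6, Trim5 and Trim34b in 1 cluster on chromosome 7, 104218793 to 104353362, whose genes are related to the TRIM5 restriction factor. These are close copies, so reads may have been split between them and their values are uncertain. Trim12a had 0.497, 0.621, 0.628 and 1.37 aligned bases per Mb in HdR libraries, against 1.17, 1.12, 1.53 and 1.38 in WT libraries. HdR 4, the shallowest library, lay within the WT range, and without it Trim12a fell under the filter. Its call of -0.39 ± 0.15 (log2, SE, limma adjusted p = 0.0459) held in 4 of the 15 alternatives in which it was tested. Trim12c had 1.97, 2.41, 3.05 and 4.66 in HdR libraries, against 3.21, 2.93, 4.01 and 3.36 in WT libraries, again with HdR 4 above the other HdR libraries, and it was not called (limma adjusted p = 0.457). Without HdR 4, Trim12c was called lower. Trim34a averaged 1.59 ± 0.260 in HdR and 1.99 ± 0.359 in WT (SD, n = 4 each) and was not called (limma adjusted p = 0.21).

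Genes around the TRIM ligases went both ways. Of 31 interferon-stimulated genes 14 were tested, with 5 higher and 1 lower (42.9% called against 45% of all genes, median log2 fold change 0.10). Ddx58, which encodes RIG-I, the substrate of TRIM25, was higher at 20.2 ± 1.67 aligned bases per Mb in HdR and 15.5 ± 1.39 in WT (SD, n = 4 each), and Irf1 and Gbp2 were higher at 0.43 and 0.48 on the log2 scale. Of 15 tested sensors and adaptors on which TRIM ligases act, 4 were higher and 4 lower, with a median of 0.01. That was 53.3% called, against 45% of all genes (21.2% higher and 23.8% lower). The DNA sensing adaptor gene Tmem173 (STING) had 2.02 ± 0.410 in HdR and 0.722 ± 0.125 in WT, a low level, and Traf3 had 70.2 ± 4.56 in HdR and 54.5 ± 2.90 in WT (SD, n = 4 each). Of 14 ubiquitin-conjugating enzymes that TRIM ligases can use, 4 were higher and 4 lower (57.1% called, against 45% of all genes). Those with the smallest p were Ube2e2, lower at -0.44, Ube2w at -0.38 and Ube2d3 at -0.16 on the log2 scale.

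Members of the family under other symbols also went both ways. Pml (TRIM19), the organiser of nuclear bodies, had 42.2, 40.0, 45.3 and 38.2 aligned bases per Mb in HdR libraries, against 28.1, 28.9, 29.7 and 30.8 in WT libraries. The groups did not overlap (0.48 ± 0.059, log2, SE, limma adjusted p = 4.84e-06), beside 0.47 for Trim25 and for Trim59. Pml was also called higher by limma's treat test at a fold of 1.2, as 2.89% of all genes were. Mid2 (TRIM1), a microtubule-bound ligase, fell to 36.3 to 40.2 aligned bases per Mb in HdR, against 46.0 to 52.6 in WT (-0.31 ± 0.055, log2, SE, limma adjusted p = 0.000194). Its relative Mid1 (TRIM18) was not called (6.63 ± 0.444 in HdR and 6.10 ± 0.275 in WT, limma adjusted p = 0.368).

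The 26 rows under the filter hold members known from other tissues. Trim38, Trim50, Trim58, Trim61, Trim67 and Trim80 were listed at 0 in all 8 libraries. The muscle ligase gene Trim63 (MuRF1) averaged 0.0387 aligned bases per Mb in HdR and 0.0152 in WT, Trim55 (MuRF2) was above 0 in 1 library, and Trim72, of muscle membrane repair, averaged 0.425 in HdR and 0.729 in WT. Closest under the filter was Trim65, with a mean of 0.982 over all libraries (1.18 in HdR and 0.781 in WT), and closest above it was Trim12a, with 0.780 in HdR and 1.30 in WT. Without HdR 4, Trim65 passed the filter through its HdR level and was called higher. Trim46, a neuronal microtubule member, averaged 0.339 in HdR and 1.11 in WT, and Trim6 averaged 0.848 in HdR and 0.454 in WT.

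**Figure D5:**
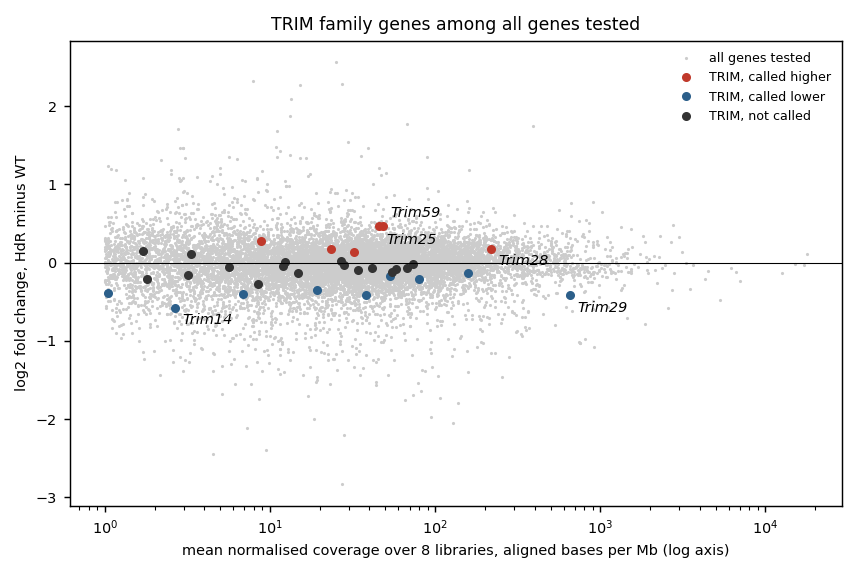
Log2 fold change, HdR minus WT, against mean normalised coverage over the 8 libraries (log axis), for all 11870 genes tested (light grey) and the 32 TRIM genes (coloured by call). The TRIM genes lie between -0.58 and 0.47, inside the spread of all genes, and Trim29 is the member with the highest coverage.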

How the data were processed

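RNA was sequenced from 4 HdR and 4 WT keratinocyte libraries. Per the labels' protocols, RNA came from culture plates (RNeasy) and libraries from the NEBNext Ultra II kit. GRCm38 was the build, per the submitters' processing notes. The aligner, counter, annotation and strand setting are not given in the sources used here. The authors deposited 1 table of signal, coverage as the sum of aligned bases per gene, unscaled. This was read from the values: the commonest non-zero value was 302, as 2 reads of 151 bases would give, but only 16.9% of the low non-zero values (under 10 times 302) were whole multiples of 302. They are thus not read counts and carry no counting interval. Libraries held 2.31 to 5.43 Gb.

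Each library was scaled by trimmed-mean factors (30% of log ratios, 5% of levels trimmed at each end) to aligned bases per Mb. Genes averaging at least 1 were tested with limma 3.58.1 (R 4.3.3, statmod 1.5.0; mean trend, robust variance) on log2(value + 1), which understates folds of low genes, two-sided, and p-values were adjusted over 11870 genes (Benjamini-Hochberg). Exon lengths and gene coordinates came from GENCODE vM21 (GRCm38), which matched all 58 TRIM symbols, and promoters from RefSeq. Exon length is the union over all annotated transcripts. The calculation was run on simulated data in which few genes changed, as many up as down, by at least 1.5-fold. That setting differs from these data, where 45% of genes were called and the TRIM changes were smaller. It therefore does not test the scaling or the error rate here. Figures used Python 3.11.15 and matplotlib 3.10.9.

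The members, classes and lists were chosen with earlier results of these data known. Values in every library are given for the 6 higher and 6 lower called members with the largest change, 13 members chosen for their role and the 3 highest per kilobase (18 genes in all). Genes of other lists are the 3 with the smallest p, and Pml, Mid1 and Mid2 were all of their list that passed the filter. Trim3, Trim26, Trim34a, Trim12c, Trim41, Trim44, Trim56 and Nans were given values after these were seen. Alternatives were 3 other scalings, 2 filters, 2 pseudocounts, limma-voom, limma's treat test at a fold of 1.2, a block for the replicate number, 1 thinning draw, and libraries left out. Limma-voom and the thinning took the values divided by 302 as if they were counts. Most low values were not whole multiples of 302, so these 2 alternatives rest on that conversion.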

Additional observations from a re-analysis of the deposited data

Results flagged for a closer look

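A library far from the other 3 of its genotype was looked for in 34 groups of 4, and 3 were found, where chance gives about 1 group in 20. Trim32 had 11.5 aligned bases per Mb in HdR 3, against 9.07 to 9.22 in the other HdR libraries, and its call was lost without that library. Trim35 had 30.5 in HdR 4, against 32.7 to 33.0 in the other HdR libraries. Trim12a had 1.37 in HdR 4, against 0.497 to 0.628 in the other HdR libraries, and HdR 4 was the shallowest library, at 2.31 Gb. The part of depth in this value was not tested.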

How the results depend on the processing

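Under 20 alternatives the 15 called members kept their direction in every one where they were tested. Against a fold of 1.2, 2 members were higher and 1 lower, and over all genes 343 and 544. With 1 library left out, 3 to 6 members were higher, with 3 without WT 1, and 8 to 10 were lower. Over all genes 2145 to 2477 were then higher and 2416 to 2812 lower, against 2517 and 2829 with all libraries. Upper-quartile scaling gave 6 higher and 8 lower members, and moved the split of all calls to 57.7% higher, against 47.1%, since it shifted the median of all genes from -0.01 to 0.03 on the log2 scale. Trim27, not called, changed sign with upper-quartile scaling (0.018), with library totals as the only scaling (0.0045) and without HdR 4 and WT 4 together (0.054), and ran from -0.059 to 0.043 with 1 library left out, above 0 without HdR 4. The cause was not tested. With no filter on low values, Trim40 and Trim6 were called higher and Trim46 lower. The labels state no pairing of replicate numbers. Correlations of same-numbered deviations ran from -0.22 to 0.03. For numbers 1 and 4 the same-numbered WT library had the highest correlation, and for 2 and 3 it had not. With 4 libraries per genotype this cannot settle whether the numbers pair the libraries. With the number as a block 5 members were higher and 9 lower, and over all genes 2236 and 2519. Depth was 2.31 to 4.31 Gb in HdR and 4.78 to 5.43 Gb in WT. After thinning to the smallest library 5 members were higher and 7 lower, and the calls of Trim12a, Trim2 and Trim24 were lost. Over all genes 2182 were then higher and 2293 lower.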
